A study of Homo sapiens with 6 samples.

Results

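Hypoxia-inducible factor (HIF) is the transcription factor through which cells respond to low oxygen. The genes described here are 10 named components and outputs of that pathway: HIF1A, EPAS1, ARNT, EGLN1, EGLN2, EGLN3, VHL, HIF1AN, VEGFA and CA9. They were chosen by name, and all 10 were found among the 28265 gene symbols of the count tables. The samples were LN229 cells, an established human glioblastoma line, grown in DMEM with fetal bovine serum; the labels name neither an oxygen level nor a hypoxic treatment. The libraries were 3 with the genotype label TRIM25 knockdown (the series design speaks of KD derivatives, shTRIM25) and 3 with the genotype label WT. TRIM25 encodes a ubiquitin ligase. WT titles include NC, an abbreviation left undefined. Whether replicate libraries are separate cultures, and how many derivative lines or hairpins they represent, is not stated, so p-values measure the spread between these libraries only.

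In well-oxygenated cells the prolyl hydroxylases EGLN1, EGLN2 and EGLN3 mark the HIF alpha subunits, and the VHL protein then recruits a ubiquitin ligase that leads to their destruction. When oxygen falls the alpha subunit escapes, pairs with ARNT and binds hypoxia response elements in DNA. Among the genes it switches on are VEGFA and CA9, but also EGLN3 and EGLN1, so the sensor is itself an output of the pathway and limits it. Most control of HIF alpha is therefore on the protein, which was not measured here: the values below are mRNA.

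Total counts ranged from 11349865 to 16404725 in the libraries labelled knockdown and from 13763400 to 15868470 in the libraries labelled WT, and 14315 genes passed a filter on low counts. TRIM25 itself had 82.9 ± 4.84 CPM (counts per 1000000 counts, on TMM-scaled library sizes) in the libraries labelled knockdown and 35.6 ± 0.243 CPM in the libraries labelled WT (SD, n = 3 each), so the targeted mRNA was higher, against the label (log2 fold change 1.22 ± 0.07, SE; edgeR, Benjamini-Hochberg adjusted p = 3.23e-09). Groups are called by their labels for that reason, and no direction below can be read as the effect of losing TRIM25 mRNA. Of 13 glial and glioma markers 9 passed the filter. VIM, NES, S100B and SOX2 were abundant, whereas the astrocyte marker GFAP had 2 to 8 counts and AQP4 0 to 3 counts per library. SOX9 had 2 to 18 counts and CHI3L1 0 to 2 counts per library. GFAP shares 2230 bp of exon with CCDC103 and with FAM187A on the other strand, so its counts may not measure its expression. The 13 markers summed to 5918 to 6314 TPM (deposited transcript abundance, per length) in the libraries labelled knockdown and 6513 to 6713 TPM in those labelled WT. Most of that sum was VIM, which was not called (log2 fold change -0.14, edgeR adjusted p = 0.0557). CD44, EGFR, FABP7 and SLC1A3 were not called either. The log2 fold changes of the called markers were -0.66 for SOX2, -0.67 for OLIG2, -0.33 for S100B and 0.27 for NES. The summed level of the 9 immune cell markers ranged from 101.0 to 120.1 TPM in the libraries labelled knockdown and from 72.9 to 77.2 TPM in those labelled WT, nearly all of it CD68. The defining markers AIF1 and TYROBP were at 0 counts in every library, while CD68 rose by 0.49 and ITGAM by 1.28. The 8 endothelial markers summed to 2.858 to 3.999 TPM in the libraries labelled knockdown and 3.56 to 4.12 TPM in those labelled WT. The 7 epithelial markers, with KRT5 and KRT19 at 0, summed to 185.2 to 203.2 TPM in the libraries labelled knockdown and 172.8 to 186.4 TPM in those labelled WT, most of it KRT18 and KRT8. KRT14, the called member of that list, went the other way from the sum and fell by 1.04, at 2.72 ± 0.462 TPM in the libraries labelled knockdown and 5.40 ± 0.141 TPM in those labelled WT (SD, n = 3 each). The part of these marker differences in the results below was not tested.

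On the deposited TPM scale, which allows levels of different genes to be compared per length, the genes covered a wide range. HIF1A, the oxygen-labile alpha subunit, was highest, with 430.1 to 646.5 TPM over the 6 libraries. CA9, which encodes a membrane carbonic anhydrase that regulates pH around hypoxic tumour cells, followed with 233.9 to 295.7 TPM. VEGFA, the angiogenic growth factor gene, had 147.4 to 199.4 TPM. EGLN1, the main HIF prolyl hydroxylase gene, had 95.2 to 118.0 TPM, and EPAS1, which encodes the other major alpha subunit, HIF-2 alpha, had 64.0 to 77.4 TPM. VHL had 47.9 to 54.1 TPM and ARNT 34.0 to 40.7 TPM. HIF1AN, the asparaginyl hydroxylase that blocks coactivator binding by HIF alpha, had 13.8 to 16.4 TPM. EGLN3 was lowest of the 9 tested genes at 3.42 to 9.95 TPM. EGLN2 is listed at 0.104 to 0.563 TPM and is not placed in the order, because its counts cannot be read as its expression. No 2 neighbours among the other 9 had overlapping ranges over the 6 libraries, and CPM per kilobase gave the same order.

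**Figure D1:**
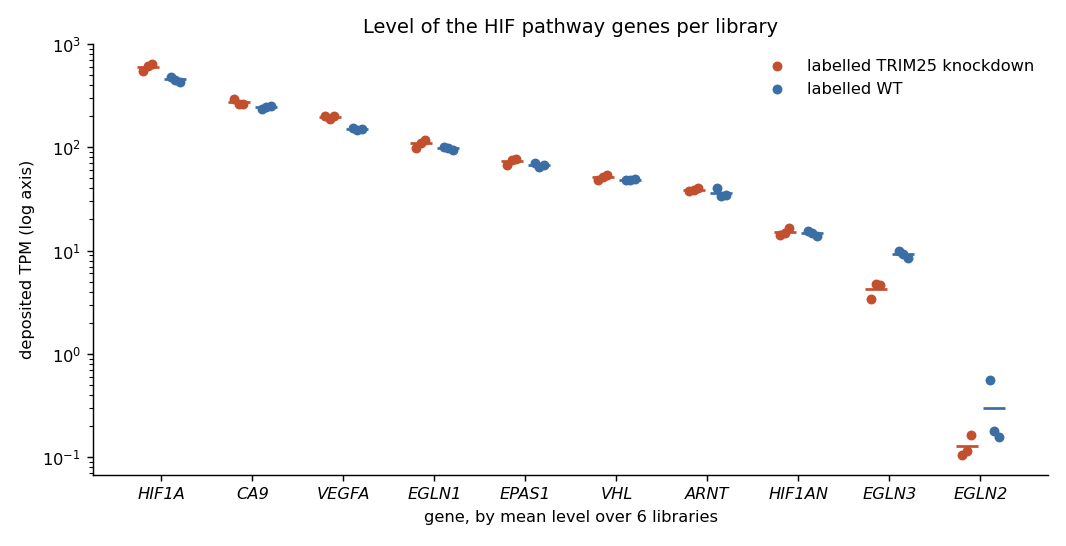
Deposited TPM of the 10 genes on a log axis; each point is 1 library, 3 labelled TRIM25 knockdown (left of each pair) and 3 labelled WT, and lines are group means. HIF1A is highest at 430.1 to 646.5 TPM, and EGLN3 is the gene whose 2 groups lie farthest apart among the 9 that were tested.

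Of the 9 genes that could be tested, HIF1A and VEGFA rose, EGLN3 fell, and 6 did not pass the test. That is 3 of 9 called, against 23.3% of all tested genes (12.2% were higher and 11.0% lower, labelled knockdown over WT). With 9 genes, that share is not read as particular to them. The CPM of the groups did not overlap for the same 3 tested genes, against 37.3% of all tested genes (18.3% higher, 19.0% lower). The median log2 fold change of the 9 was 0.07, beside -0.0038 over all tested genes. EGLN2 was the 1 gene that did not pass the filter. In these bulk libraries fewer cells expressing a gene and less of its RNA per cell cannot be told apart.

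Among the transcription factor subunits, HIF1A mRNA was 1.27-fold higher in the libraries labelled knockdown, while EPAS1 and ARNT were not called. HIF1A had 838.6, 903.0 and 942.3 CPM in the libraries labelled knockdown, against 729.7, 701.5 and 677.0 CPM in those labelled WT. The lowest library labelled knockdown lay above the highest labelled WT. The log2 fold change was 0.35 ± 0.05 (SE; edgeR quasi-likelihood test, adjusted p = 0.000206). The antisense gene HIF1A-AS1 shares 117 bp of exon with HIF1A on the other strand but had 20 to 33 counts per library, against 9672 to 15360 for HIF1A.

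EPAS1 had 123.9, 135.4 and 135.8 CPM in the libraries labelled knockdown and 128.9, 120.0 and 127.0 CPM in those labelled WT, and the groups overlapped. The log2 fold change of EPAS1 was 0.07 (95% interval -0.06 to 0.20; edgeR adjusted p = 0.432). ARNT, the constitutive partner of both alpha subunits, had 65.3, 64.1 and 66.4 CPM in the libraries labelled knockdown and 69.4, 59.8 and 61.5 CPM in those labelled WT. All its libraries labelled knockdown lay within the range of those labelled WT, and the log2 fold change was 0.04 (95% interval -0.11 to 0.19, adjusted p = 0.741). The TPM of HIF1A was 8.15, 8.03 and 8.35 times that of EPAS1 in the libraries labelled knockdown, against 6.81, 7.03 and 6.42 times in those labelled WT. The ratio was higher in each library labelled knockdown than in any labelled WT; this is a description with no test.

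Of the oxygen sensors, EGLN3, the hydroxylase most strongly induced by HIF in many cell types, was 2.23-fold lower in the libraries labelled knockdown, and EGLN1 was not called. The difference between them was not tested. EGLN3 had 40, 50 and 70 counts, or 3.33, 4.42 and 4.29 CPM, in the libraries labelled knockdown. In the libraries labelled WT it had 151, 126 and 132 counts, or 9.50, 9.14 and 8.35 CPM. The groups were far apart compared with their spread, at 4.015 ± 0.595 CPM in the libraries labelled knockdown and 8.996 ± 0.586 CPM in those labelled WT (SD, n = 3 each). The log2 fold change was -1.16 ± 0.14 (SE; edgeR adjusted p = 2.07e-05).

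EGLN1 had 251.4, 271.9 and 285.0 CPM in the libraries labelled knockdown and 254.3, 253.6 and 248.2 CPM in those labelled WT. Replicate 1 labelled knockdown lay inside the WT range and the other libraries labelled knockdown above it. The log2 fold change was 0.10 (95% interval -0.03 to 0.22; edgeR adjusted p = 0.241). Without labelled knockdown replicate 1 it was 0.15 and passed (adjusted p = 0.0288). After adjustment for gene length and GC content it was -0.015 (adjusted p = 0.79).

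EGLN3 made up 3.36%, 4.09% and 3.80% of the summed TPM of EGLN1, EGLN2 and EGLN3 in the libraries labelled knockdown, against 8.88%, 8.62% and 8.10% in those labelled WT. EGLN1 supplied nearly all of the remainder in every library, and its TPM was 25.8 ± 2.70 times that of EGLN3 in the libraries labelled knockdown and 10.7 ± 0.571 times in those labelled WT (SD, n = 3 each).

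EGLN2 could not be assessed. It had 1, 1 and 2 counts in the libraries labelled knockdown and 7, 2 and 2 counts in those labelled WT. In the GENCODE v29 annotation 2012 bp of its exons also belong to RAB4B-EGLN2, a same-strand readthrough gene that is also a row of the tables. EGLN2, RAB4B-EGLN2 and RAB4B together held 4, 1 and 7 counts in the libraries labelled knockdown and 10, 3 and 3 counts in those labelled WT. How the authors' counting treated reads that fall on more than 1 gene is not given in the sources used here, so these counts are not a measure of EGLN2 expression, and the EGLN shares above rest on EGLN1 and EGLN3.

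**Figure D2:**
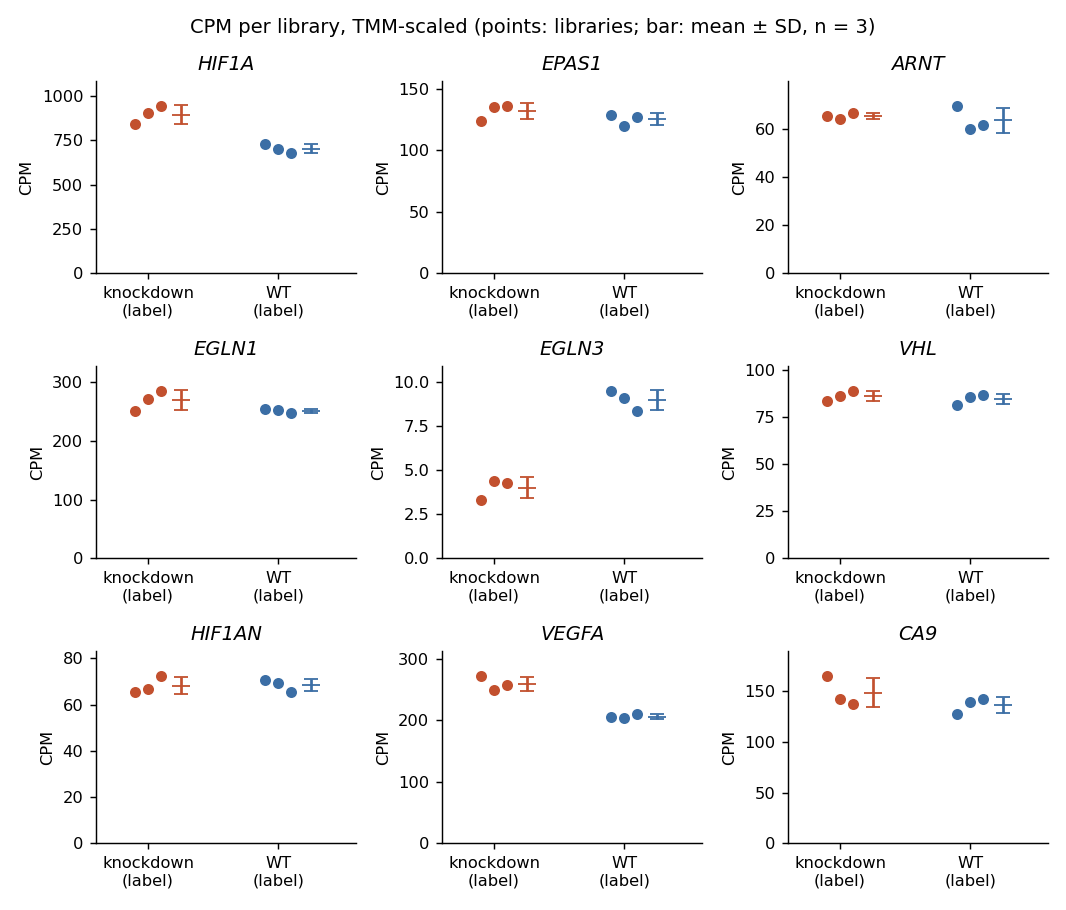
TMM-scaled CPM of the 9 tested genes in each library (points), labelled knockdown left of labelled WT, with mean ± SD (n = 3) beside the points; each axis starts at 0. The groups are separate for HIF1A, EGLN3 and VEGFA, and overlap for the other genes.

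Neither VHL nor HIF1AN was called. VHL, the substrate receptor that binds hydroxylated HIF alpha, had 83.5, 86.4 and 88.7 CPM in the libraries labelled knockdown and 81.3, 85.4 and 86.5 CPM in those labelled WT. The groups overlapped, and the log2 fold change was 0.03 (95% interval -0.10 to 0.16, adjusted p = 0.762). HIF1AN had 65.6, 67.0 and 72.3 CPM in the libraries labelled knockdown and 70.7, 69.5 and 65.7 CPM in those labelled WT, with a log2 fold change of -0.0049 (95% interval -0.15 to 0.14, edgeR adjusted p = 0.97). Its ranges were nearly the same in both groups. HIF1AN shares 325 bp of exon with NDUFB8 on the other strand, and NDUFB8 was not called (log2 fold change -0.04 ± 0.07, SE). The counting program's strand setting is not given in the sources used here, so reads from such overlaps cannot be assigned with certainty.

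Of the 2 classical outputs, VEGFA rose and CA9 was not called. VEGFA rose 1.26-fold: it had 271.6, 249.2 and 257.5 CPM in the libraries labelled knockdown, against 205.2, 203.5 and 210.2 CPM in those labelled WT. The groups were well separated, and the log2 fold change was 0.33 ± 0.06 (SE; edgeR adjusted p = 0.000439). CA9 had 164.3, 142.1 and 137.5 CPM in the libraries labelled knockdown and 127.4, 139.4 and 142.1 CPM in those labelled WT. Only replicate 1 labelled knockdown stood above the rest, and the log2 fold change was 0.12 (95% interval -0.03 to 0.27; edgeR adjusted p = 0.248).

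The CA9 value was not stable across settings. In deposited TPM the groups did not overlap, with 295.7, 265.0 and 261.8 TPM in the libraries labelled knockdown and 233.9, 248.2 and 250.4 TPM in those labelled WT. After the adjustment for length and GC content the log2 fold change was 0.24 (edgeR adjusted p = 4.00e-05), and without labelled knockdown replicate 1 it was 0.04 (adjusted p = 0.629). CA9 is short, at 1544 bp, and fold change followed gene length across the table (Spearman's rho 0.3 over 14315 genes, which are not independent replicates). It shares 643 bp of exon on the other strand with ARHGEF39, which was not called (log2 fold change -0.08 ± 0.09, SE).

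HIF1A, EGLN3 and VEGFA kept their direction and their call in each of the 13 alternative analyses. HIF1A ranged from 0.29 to 0.40 on the log2 scale, EGLN3 from -1.22 to -1.04 and VEGFA from 0.30 to 0.40. Their highest adjusted p values, all with the library number as a block, were 0.00524, 0.000427 and 0.00856.

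**Figure D3:**
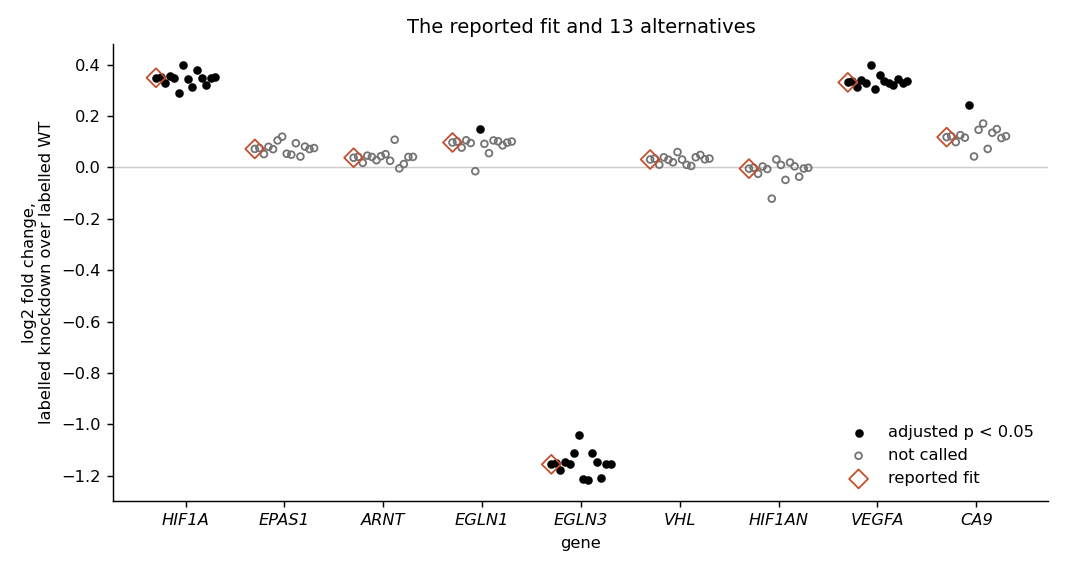
Log2 fold change (labelled knockdown over labelled WT) of the 9 tested genes in the reported fit (diamond) and 13 alternatives; filled points have an adjusted p under 0.05. HIF1A and VEGFA stay between 0.29 and 0.40 and EGLN3 between -1.22 and -1.04, all filled, whereas EGLN1 and CA9 are each filled in 1 alternative.

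Promoter sequence of the hydroxylase genes EGLN3 and EGLN1 and of CA9 is shown because EGLN3 was called. EGLN1 and CA9, added after their values were seen, are hypoxia-induced genes that were not called. Windows of the hydroxylase genes EGLN2 and HIF1AN are not shown. The windows are RefSeq's, on GRCh38.p14 (the count tables are on hg19), and run from 250 bases before to 50 bases after the annotated start, 5′ to 3′ on the gene's strand. Capitals mark ACGTG, a form of the core of the hypoxia response element, on either strand. Other forms of that core were not searched. The EGLN3 window is chr14:33951025-33951324 (minus strand), the EGLN1 window chr1:231422238-231422537 (minus strand) and the CA9 window chr9:35673678-35673977 (plus strand).
EGLN3: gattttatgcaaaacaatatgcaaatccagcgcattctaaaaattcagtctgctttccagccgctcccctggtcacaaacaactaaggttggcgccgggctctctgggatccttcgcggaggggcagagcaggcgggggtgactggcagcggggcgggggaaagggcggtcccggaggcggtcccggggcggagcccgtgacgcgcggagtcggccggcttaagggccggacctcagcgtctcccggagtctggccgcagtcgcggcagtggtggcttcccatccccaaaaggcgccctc
EGLN1: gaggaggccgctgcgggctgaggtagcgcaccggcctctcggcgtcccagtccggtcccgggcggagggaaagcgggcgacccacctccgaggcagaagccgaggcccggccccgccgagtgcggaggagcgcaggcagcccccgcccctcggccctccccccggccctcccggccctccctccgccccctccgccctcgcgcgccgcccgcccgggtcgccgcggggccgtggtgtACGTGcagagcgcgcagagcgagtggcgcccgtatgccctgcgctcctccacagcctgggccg
CA9: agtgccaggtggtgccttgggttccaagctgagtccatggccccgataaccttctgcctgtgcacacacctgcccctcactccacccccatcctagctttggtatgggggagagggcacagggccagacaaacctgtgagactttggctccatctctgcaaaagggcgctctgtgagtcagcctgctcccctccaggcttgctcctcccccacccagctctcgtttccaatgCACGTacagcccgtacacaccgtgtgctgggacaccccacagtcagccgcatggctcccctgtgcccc
The EGLN1 window held ACGTG once, starting at position -13 from the annotated start, and the CA9 window held it once on the opposite strand, read as CACGT, starting at position -18. The EGLN3 window and the HIF1A windows held no ACGTG. Of the 10 genes, 8 had a window in the table, VEGFA and VHL had none there, and 3 genes (EGLN1, EGLN2 and CA9) had a match, in 3 of 10 windows. Over all genes 21.4% of 35116 windows held it. A match describes letters only, and elements outside these windows were not searched.

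Genes around the pathway were described from 6 lists. The largest holds 43 other genes known to be induced through HIF, of which 40 were tested. Of these 22 fell, 4 rose and 14 were not called in the libraries labelled knockdown, where 11.0% of all tested genes were lower and 12.2% higher, with a median log2 fold change of -0.26 for the list. So most of the called HIF target genes lay on the side of EGLN3, and VEGFA on the other. RORA, a nuclear receptor gene, had the largest difference, at 1.69 ± 0.182 CPM in the libraries labelled knockdown and 3.44 ± 1.33 CPM in those labelled WT (SD, n = 3 each; log2 fold change -0.998 ± 0.275, SE). It is a low-count gene whose call was lost without labelled knockdown replicate 2 (adjusted p = 0.057) and without WT replicate 1 (0.0866) or 2 (0.0559). MIR210HG, the host transcript of the hypoxia-induced miR-210, had 11.8 ± 1.57 CPM in the libraries labelled knockdown and 19.0 ± 1.97 CPM in those labelled WT (log2 fold change -0.70 ± 0.11, SE; edgeR adjusted p = 0.000276). P4HA2, a collagen prolyl hydroxylase gene, fell by 0.59 on the log2 scale. RORA and P4HA2 share 564 and 548 bp of exon with an antisense gene on the other strand.

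The following target genes were not named by rule and were picked out after their values were seen. The glucose transporter genes SLC2A1 and SLC2A3 had log2 fold changes of -0.37 and -0.52. SLC2A1 averaged 178.3 CPM in the libraries labelled knockdown and 230.5 CPM in those labelled WT. Of the glycolytic enzyme genes, PGK1, ENO1 and LDHA fell by 0.37, 0.26 and 0.23 on that scale, while HK2 (-0.16), ALDOA (-0.16) and PFKFB4 (-0.17) did not pass. ALDOA averaged 65.8 CPM in the libraries labelled knockdown and 73.0 CPM in those labelled WT. In GENCODE v29 it shares 1657 bp of exon with AC093512.2 on the same strand, so its counts may not measure its expression. LDHA, whose product makes lactate, averaged 2082 CPM in the libraries labelled knockdown and 2449 CPM in those labelled WT. PDK1, which restrains pyruvate entry into mitochondria, fell by 0.29. BNIP3 and BNIP3L, which encode mitophagy receptors, fell by 0.46 and 0.35. Among collagen-modifying enzymes P4HA1 fell by 0.42 and PLOD2 did not pass (-0.10, 95% interval -0.21 to 0.02). FAM162A, INSIG2, HILPDA, GBE1, KDM4B, PPFIA4, DDIT4, NDRG1 and ANGPTL4 also fell, with log2 fold changes between -0.51 and -0.26. The ANGPTL4 call was lost without labelled knockdown replicate 2 (adjusted p = 0.0808) or 3 (0.0892) and without WT replicate 2 (0.0808) or 3 (0.113). The other called genes of this paragraph kept their call whichever library was left out.

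The 4 target genes that rose were VLDLR, a lipoprotein receptor gene, PFKFB3, which promotes glycolysis, KDM4C, a histone demethylase gene, and MXI1, which encodes an antagonist of MYC. Their log2 fold changes were 0.57, 0.24, 0.20 and 0.18, and the last 3 were picked out after their values were seen. VLDLR kept its call whichever library was left out, and shares 738 bp of exon with VLDLR-AS1 on the other strand. The PFKFB3 call was lost without WT replicate 2 (adjusted p = 0.0776). Those of KDM4C and MXI1 were lost without labelled knockdown replicate 2 (0.153 and 0.139) or 3 (0.0905 and 0.0732) and without WT replicate 2 (0.192 and 0.186) or 3 (0.121 and 0.196). CXCR4, EPO and LOX were not tested and had at most 6 counts in any library. After the adjustment for length and GC content 27 of the 40 were lower and 3 higher, with a median of -0.20 beside 0.016 for all tested genes; that fit called 32.4% of all tested genes (2574 higher, 2066 lower). Of the 54 promoter windows of this list, from 37 genes, 59.3% held ACGTG, in a list compiled because its genes are known to respond to HIF.

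**Figure D4:**
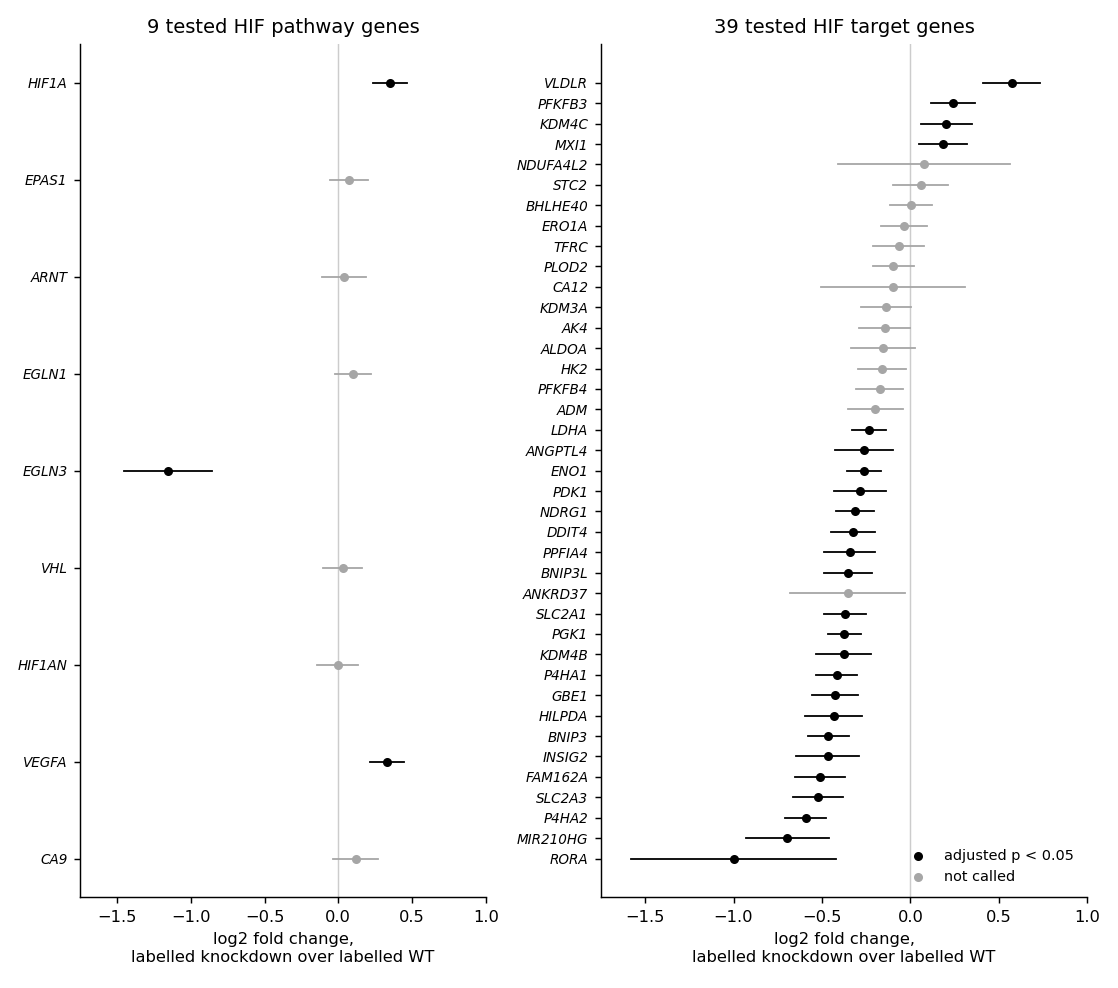
Log2 fold change (labelled knockdown over labelled WT) with 95% interval for the 9 tested HIF pathway genes (left) and 39 other HIF target genes (right); black marks an adjusted p under 0.05. On the right 21 black points lie below 0 and 4 above, while on the left EGLN3 is below 0 and HIF1A and VEGFA are above.

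Of the 5 partners of VHL in its ubiquitin ligase, 3 fell and 2 were not called, where 11.0% of all tested genes were lower. The log2 fold changes were -0.35 for ELOB, -0.28 for RBX1 and -0.23 for NEDD8, and 0.10 ± 0.07 for CUL2 and -0.07 ± 0.06 for ELOC, which did not pass. ELOB, an elongin adaptor gene, had 99.5 ± 15.1 CPM in the libraries labelled knockdown and 126.4 ± 12.2 CPM in those labelled WT, and the groups overlapped. In CPM the groups also overlapped for RBX1 but not for NEDD8. NEDD8 shares 488 bp of exon with the readthrough gene NEDD8-MDP1. All 3 calls were lost without labelled knockdown replicate 2 (adjusted p = 0.0924, 0.135 and 0.0864) and without WT replicate 2 (0.0661, 0.206 and 0.0968) or 3 (0.0607, 0.0702 and 0.101). RBX1 and NEDD8 were also lost without labelled knockdown replicate 3 (0.0765 and 0.0538). The median length of these 5 genes was 1169 bp, against 3592 bp for all tested genes, and fold change followed length. With length and GC adjusted the list's median moved to -0.10, against -0.23 as reported, ELOB was -0.19, and NEDD8 was no longer called (adjusted p = 0.112).

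Of 9 other HIF family subunits and cofactors, 8 were tested, 4 rose and 1 fell, where 12.2% of all tested genes were higher and 11.0% lower. The transcriptional coactivator genes EP300 and CREBBP, recruited by HIF alpha when HIF1AN is inactive, rose by 0.37 each on the log2 scale. EP300 had 154.7 ± 11.7 CPM in the libraries labelled knockdown and 119.4 ± 19.6 CPM in those labelled WT (SD, n = 3 each). The groups did not overlap for EP300 in CPM, but they overlapped in TPM. ARNT2, a paralog of ARNT, rose by 0.39, at 133.5 ± 3.20 CPM in the libraries labelled knockdown and 102.1 ± 7.74 CPM in those labelled WT. CITED4 rose by 0.76 and CITED2 fell by 0.27; both encode proteins that compete with HIF alpha for these coactivators. The CITED2 call was lost without labelled knockdown replicate 2 (adjusted p = 0.0888) or 3 (0.0712) and without WT replicate 2 (0.0607) or 3 (0.0872). HIF3A had at most 1 count in a library and was not tested. The median length of the 8 tested genes was 7191 bp, against 3592 bp for all tested genes, and fold change followed length. With length and GC adjusted the list's median was 0.18, against 0.27 as reported, with 4 higher and 1 lower. In that fit EP300 was 0.28, CREBBP 0.285, ARNT2 0.38, CITED4 0.98 and CITED2 -0.19.

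Among 19 genes whose products bind or modify HIF alpha or its hydroxylases, 1 rose, 2 fell and 16 were not called, where 23.3% of all tested genes were called. MAGED1 fell by 0.36, at 154.4 ± 5.95 CPM in the libraries labelled knockdown and 197.8 ± 2.99 CPM in those labelled WT (SD, n = 3 each). LIMD1, a scaffold that brings EGLN proteins and VHL together, fell by 0.30, a call lost without labelled knockdown replicate 2 (adjusted p = 0.0739). LIMD1 shares 1029 bp of exon with LIMD1-AS1 on the other strand. SENP1, a SUMO protease gene that shares 628 bp of exon with PFKM on the other strand, rose by 0.25, a call lost without labelled knockdown replicate 2 (0.0808) or 3 (0.18) and without WT replicate 2 (0.153) or 3 (0.147). In CPM the groups overlapped for SENP1.

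Of 9 other VEGF ligands and receptors 7 were tested, of which 1 rose, 2 fell and 4 were not called (23.3% of all tested genes were called). The lymphatic growth factor gene VEGFC had 10.9 ± 0.381 CPM in the libraries labelled knockdown and 16.1 ± 1.66 CPM in those labelled WT (log2 fold change -0.55 ± 0.11, SE; edgeR adjusted p = 0.00124). PGF, the placental growth factor gene, fell by 0.56, a call lost without WT replicate 3 (adjusted p = 0.057). The co-receptor gene NRP2 rose by 0.42, at 292.1 ± 14.8 CPM in the libraries labelled knockdown and 217.8 ± 13.5 CPM in those labelled WT. VEGFB, FLT1, KDR and NRP1 were not called. Of 13 other carbonic anhydrases only CA11, CA12 and CA13 passed the filter, with log2 fold changes of -0.27 ± 0.11, -0.10 ± 0.19 and 0.17 ± 0.13 (SE); edgeR's adjusted p values were 0.076, 0.753 and 0.384. CA12 is also one of the HIF target genes.

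By likeness over the 6 libraries (root mean square difference of log2 CPM centred on each gene's mean, among 11834 genes), the genes nearest to HIF1A were LARS1, CCDC14 and ENAH, at 0.0144, 0.0162 and 0.0183. Nearest to EGLN3 were CHL1, C1QTNF3 and LINC01004, at 0.0695, 0.0704 and 0.0902. Among the genes nearest to VEGFA were IRS2 and UTP4, at 0.0247 and 0.0286.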

How the data were processed

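Total RNA from 6 LN229 libraries, 3 labelled TRIM25 knockdown and 3 labelled WT, was sequenced after a stranded total RNA library preparation, per the labels' protocols. Groups came from the genotype label. FastQC, MultiQC, Trim Galore, HISAT2 and the build hg19 are named in the submitters' processing notes, without versions. Neither the counter and its strandedness option nor the gene annotation is given in the sources used here. There is 1 deposited table per library, of 28265 gene symbols. The authors' count column holds whole, unnormalised values, per the file headers and the values. The authors' FPKM column is the count per kilobase of a fixed gene length and per 1000000 counts. Gene lengths recovered from it were whole within 0.001 bases for all 21754 genes with a count. The deposited TPM column sums to 1000000 in each library.

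Counts were fitted over all genes in R 4.3.3 with edgeR 4.0.16: filterByExpr (14315 genes kept, 99.9% of counts), TMM factors, glmQLFit and glmQLFTest with group as the only term. Adjusted p values are Benjamini-Hochberg over all tested genes, called under 0.05. Log2 fold changes are labelled knockdown minus labelled WT. The standard error is the fold change's size over the square root of the F statistic. CPM use TMM-scaled library sizes. The fit was checked on simulated data with known fold changes. Replicate libraries were not copies of each other: chi-square over degrees of freedom was 1.95 or more for each pair.

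The alternatives were RLE and upper quartile factors, no filter, DESeq2 1.42.0, limma-voom (limma 3.58.1), the library number as a block, each library left out, and offsets smoothed on gene length and GC content (mgcv 1.9.3; GC from GENCODE v29 transcripts, matched for 96.5% of tested genes, others set to the median). Shared exon lengths are from GENCODE v29, on another build than the files. The genes, the lists (from general knowledge) and the tests were chosen with earlier results of these data known. All 10 genes are named. In each list the 4 called genes with the largest change are named, or all called genes where there are at most 5. For each called gene of the 10, the 3 nearest genes are named, among those averaging 2 or more in log2 CPM. Of the genes these rules and lists give, 2 are not reported here, in the text or the plots. Lists are described by counts and medians without a set test. Protein sequences were not used here.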

Additional observations from a re-analysis of the deposited data

How the results depend on the processing

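The count of called genes was 3330 in the reported fit (1753 higher, 1577 lower). It ranged from 1826 to 4941 when 1 library was left out (930 to 2622 higher, 866 to 2319 lower): 4941, 1868 and 2445 without labelled knockdown replicates 1, 2 and 3, and 3096, 1826 and 1877 without WT replicates 1, 2 and 3. With the library number as a block it was 1891 (967 higher, 924 lower), and with length and GC adjusted 4640 (2574 higher, 2066 lower). Library numbers were not treated as pairing, since no label gives them a meaning and same-numbered libraries deviated from their group means with correlations of -0.191, 0.008 and -0.217. The 3 calls among the HIF pathway genes held under the block and every other alternative, and the number called was 3 to 4 without 1 library. The 22 HIF target genes that fell were 19 to 25 without 1 library. The 4 that rose were 1 to 4 without 1 library, and 2 with upper quartile factors, with the block and with DESeq2. The values of EGLN1, HIF1AN and ARNT, not called, changed sign: EGLN1 was -0.015 with length and GC adjusted (0.0553 to 0.1505 without 1 library), HIF1AN 0.0035 without a filter (-0.0487 to 0.031 without 1 library, and -0.12 with length and GC adjusted, adjusted p = 0.054) and ARNT -0.0039 to 0.11 without 1 library. CA9 became called at 0.24 with length and GC adjusted, and was 0.04 to 0.17 without 1 library. The cause of these shifts was not tested. Of 32 named list genes, 12 were no longer called after some library was left out, as given beside them. The 3 VHL partners that fell were 1 with the block. With length and GC adjusted, which raised calls over all genes too, called genes numbered 5 higher and 4 lower among HIF stability regulators (1 and 2 as reported), 4 lower in the VEGF family (2 as reported) and 5 lower among the other oxygenases (3 as reported). EGLN3 rests on 40 to 151 counts per library, and EGLN2 had too few for a test.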

Other observations

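Other 2-oxoglutarate oxygenases, enzymes that share the oxygen chemistry of the EGLN proteins and HIF1AN, gave 4 higher and 3 lower genes of 24 tested in the libraries labelled knockdown, with 17 not called and a median log2 fold change of 0.09; 23.3% of all tested genes were called, 12.2% higher and 11.0% lower. TET3, which oxidises methylated DNA, had 57.9 ± 5.29 CPM in the libraries labelled knockdown and 38.4 ± 5.41 CPM in those labelled WT (SD, n = 3 each). TET3 rose by 0.59 ± 0.09 in log2 units (SE, with edgeR's adjusted p at 0.000236). Its paralog TET2 rose by 0.42, a call lost without WT replicate 2 (adjusted p = 0.0648) or 3 (0.0658). In CPM the groups overlapped for TET2. The histone demethylase gene KDM7A rose by 0.51. ALKBH5, an RNA demethylase gene, fell by 0.36, at 82.3 ± 4.67 CPM in the libraries labelled knockdown and 106.0 ± 4.53 CPM in those labelled WT. Higher calls in this list numbered 3 to 10, and lower calls 1 to 4, when 1 library was left out. The median length of the 24 tested genes was 6714.5 bp, against 3592 bp for all tested genes, and fold change followed length. With length and GC adjusted the list's median was 0.05, with 4 higher and 5 lower. In that fit TET3 was 0.54, TET2 0.25, KDM7A 0.37 and ALKBH5 -0.30.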
